A study of Gallus gallus with 8 samples.

Results

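Genes whose products modify histones, move nucleosomes or bind chromatin were followed through the 4 regions of the embryonic chicken lens. A locus was taken as a member when its gene name, or 1 of the names of a merged locus, began with a symbol of these families (HDAC, SIRT, KAT, EP300, CREBBP, KDM, SETD, MLL, NSD1, WHSC1, DOT1L, SUV, EHMT, EZH, EED, SUZ12, CBX, PHC, RING1, BMI1, PRDM, SMARC, ARID, CHD, INO80, BAZ, BRD, DNMT3, TET, MBD, HMGA, HMGB, HMGN, H1F0 or NAP1L). Many of these symbols had to be followed by a digit, with nothing after it for CHD, BRD and TET, and EED had to stand alone. SETDB2, CHD1L and BRDT were thus not members. This name rule, which used no measured value, found 143 of 16906 loci, under 140 distinct names. The members fell into 16 groups by role. Lenses came from chickens of embryonic day 13, for which no treatment or mutation is named. They were cut into the central epithelium (EC), which is not differentiating, the equatorial epithelium (EQ), where differentiation starts, the cortical fibers (FP) and the central fibers (FC). Each region was sequenced as 2 libraries, each from a pool of 100 dissected lenses. One set of lenses was cut into all regions, and the libraries of 1 region may thus come from the same animals as those of another.

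DNA in the nucleus is wound around histone proteins, and marks on the histone tails set how open a stretch of DNA is. Acetyl groups, put on by acetyltransferases and taken off by deacetylases, go with open chromatin, whereas methyl groups can go with active or silent genes, depending on the residue. ATP-driven remodelers slide or eject nucleosomes, Polycomb and heterochromatin proteins keep genes silent, and HMG proteins and linker histones bind the nucleosome itself. Lens fibers leave the cell cycle, produce crystallins in bulk and later lose their nuclei, first in the center of the lens.

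The measure was the FPKM, the number of sequenced fragments scaled to exon length and to the size of the library, of which the deposited table gives 1 value per region, pooled over its 2 libraries, with a 95% interval computed by the authors. No value per library was used, so there is no standard deviation between pools and no test, and the interval is the error given here beside an FPKM. Because FPKM is per length, levels of different genes can be set side by side. The number of reads behind a value is not in the table. The bounds of the intervals were whole multiples of a step at 48 of 140 members with enough bounds above 0, within a tolerance of 0.01 steps, but only 3.12% of the 192 FPKM values of these members were, and no read counts were recovered. The fiber regions carried their defining markers: all 7 fiber markers found were at least 2-fold higher in fibers. BFSP1, a filament protein of lens fibers, was at 77.9, 159, 12162 and 14305 in EC, EQ, FP and FC. Its intervals in FP (2.51 to 33057) and FC (0.563 to 47935) still overlapped those of the epithelium. Only 2 of the 7 fiber markers had intervals apart in at least 1 pair of regions, so overlap is common even for genes far higher in fibers. GJA1, a gap junction protein of the lens epithelium, was at 336, 817, 96.2 and 123, and FOXE3, a transcription factor of the lens epithelium, was near 0 in every region. The epithelial markers were mixed: of 4 with a ratio, GJA1 and TFAP2A, a transcription factor at 49.0, 37.9, 15.4 and 18.4, were at least 2-fold lower in fibers, CDH1, a cell adhesion protein, was at 2.82, 2.35, 1.27 and 2.09, and ITGA6, an integrin, was higher in fibers than in EC, at 18.0, 33.0, 32.8 and 37.4. The 5 found summed to 406 (EC), 890 (EQ), 146 (FP) and 182 (FC), most of it GJA1. Hemoglobin transcripts, from red blood cells, were highest in EC, where the listed red cell genes summed to 757, against 127 (EQ), 163 (FP) and 248 (FC). The markers of retina, of vessels and of muscle and mesenchyme each summed to at most 10.7 in any region. As tissue was measured in bulk, a lower share of the cells that hold a transcript and less of it in each cell cannot be told apart.

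Most of the chromatin genes were read throughout the lens. In 1 region or more, 138 members reached an FPKM of 1, and 128 did so everywhere. Among the 138, the median FPKM was 7.59 (EC), 8.00 (EQ), 6.36 (FP) and 7.12 (FC), with quartiles of 4.15 and 18.5 in EC and of 3.40 and 16.7 in FC. The highest of the 4 values was in EQ for 64 members (46.4%), in EC for 33 (23.9%), in FP for 11 (7.97%) and in FC for 30 (21.7%). Over all loci that reached an FPKM of 1, these shares were 35.8% (EQ), 24.6% (EC), 13.9% (FP) and 25.7% (FC). The place of EQ above EC depends on the scaling. The median log2 ratio of EQ over EC was 0.16 over the members, and -0.08 with the regions scaled to the same median. Another 5 members stayed below 1 everywhere: PRDM6, PRDM8, 1 of 2 loci named SETD6 and both loci named H1F0.

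Fibers and epithelium were compared by the ratio that the study defines, the summed FPKM of FP and FC over that of EC and EQ, with 2-fold as the threshold, for members that reached an FPKM of 1. By this ratio 31 of 138 members were lower in fibers (22.5%; 24.6% of all 11829 loci with a ratio), and 12 were higher (8.70%; 16.8% of all loci). The share that was lower is thus near that of all loci, and the share that was higher is below it. The median log2 ratio was -0.33 over the members and -0.20 over all loci. Without a fold threshold, both fiber values lay below both epithelial values at 72 of 138 members (52.2%; 41.9% of all loci) and above both at 30 (21.7%; 30.0% of all loci). The threshold passes through a dense stretch of values: 19 members lay between 1.8-fold and 2.2-fold, with KDM2B (-1.05) just inside and HMGB1 just outside on the lower side, and PHC2 (1.16) inside and KAT5 (0.999) outside on the higher side. With the regions scaled to the same median, the counts were 25 lower and 15 higher. With the regions scaled to the same upper quartile, they were 34 lower and 12 higher.

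**Figure D1:**
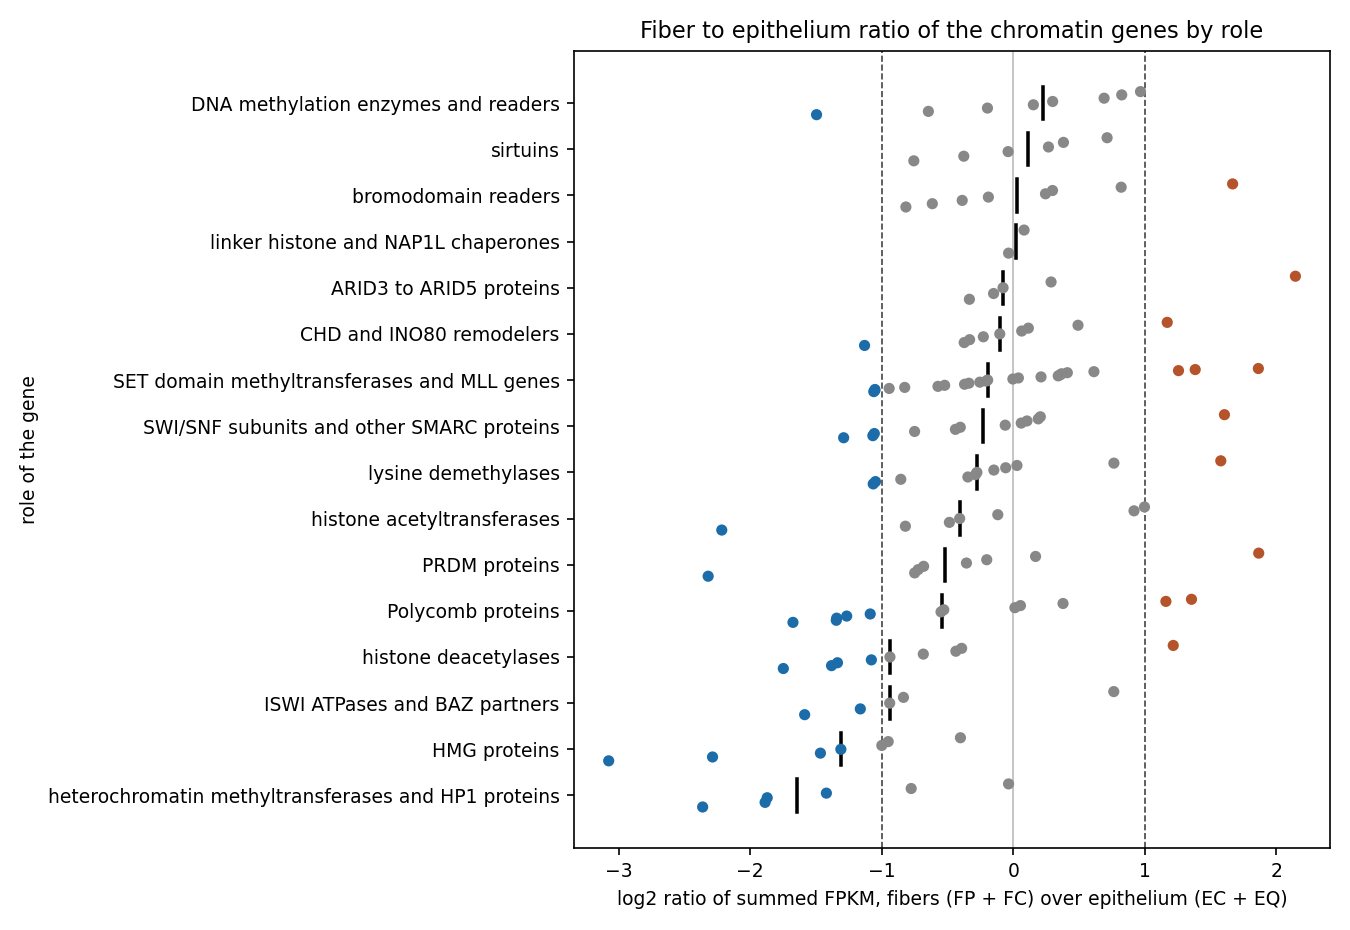
Log2 ratio of the summed FPKM of FP and FC over that of EC and EQ (horizontal axis) for each of the 138 chromatin genes with an FPKM of 1 or more in at least 1 region, 1 point per gene, in rows by role (vertical axis) ordered by the median of the role (black bar). Blue points are at least 2-fold lower (31 genes) and orange points at least 2-fold higher (12 genes) in fibers, and dashed lines mark 2-fold. The HMG proteins and the heterochromatin group lie wholly left of 0. Of these, SUV39H1 (-0.04) lies nearest to 0, and it passes to the right with the regions scaled to the same median, which is not plotted.

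Only 5 members had 95% intervals that did not overlap in at least 1 of the 6 pairs of regions, of 136 members with usable intervals, and in all 5 the fiber value was the lower one. Under the same rule 1190 of 11666 loci had such intervals. HMGB2, a nucleosome-bending protein that is abundant in dividing cells (chromosome 4, from 42740629 to 42743052, on Galgal4), was measured at 21.9 (EC, 8.38 to 35.4), 10.7 (EQ, 4.50 to 16.8), 1.55 (FP, 0.177 to 3.00) and 2.31 (FC, 0.265 to 5.21), each FPKM with its region and 95% interval in parentheses. Both fiber intervals lay below the EC interval, and that of FP lay also below that of EQ. The summed FPKM was 8.44-fold lower in fibers, the largest difference among the members that reached an FPKM of 1. HMGN2, which binds nucleosomes and loosens chromatin (chromosome 23, from 155930 to 159391), was at 183 (EC, 54.5 to 310.0), 112 (EQ, 41.1 to 183), 30.9 (FP, 7.44 to 54.4) and 29.4 (FC, 6.35 to 56.7), a sum 4.88-fold lower in fibers, and the EC and FP intervals were apart by a small gap. The reference lists HMGN2 as an alias of HMGN4 in the chicken, so the name of this locus is uncertain.

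KAT6B, a lysine acetyltransferase of histone H3 (chromosome 6, from 14547747 to 14635380), was at 4.25 (EC, 1.77 to 6.74), 6.80 (EQ, 2.77 to 10.8), 1.05 (FP, 0.141 to 2.01) and 1.32 (FC, 0.296 to 2.69). Its level in EQ was above both fiber regions with intervals apart, and its sum was 4.65-fold lower in fibers. HDAC10, a deacetylase known mainly for acting on polyamines (chromosome 1, from 20110758 to 20124996), was at 3.58 (EC, 1.03 to 6.12), 5.77 (EQ, 2.36 to 9.14), 1.20 (FP, 0.295 to 2.14) and 2.51 (FC, 0.663 to 4.42), and only the intervals of EQ and FP were apart. It is 1 of the 4 members that were at least 2-fold higher in FC than in FP. DNMT3B, which places new methyl groups on DNA (chromosome 20, from 10595951 to 10609143), was at 7.67 (EC, 3.26 to 12.0), 7.20 (EQ, 3.15 to 11.2), 1.95 (FP, 0.75 to 3.15) and 3.32 (FC, 0.90 to 5.74), and the intervals of EC and FP were apart. Each of these 5 genes was lower in both fiber regions than in both epithelial regions.

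**Figure D2:**
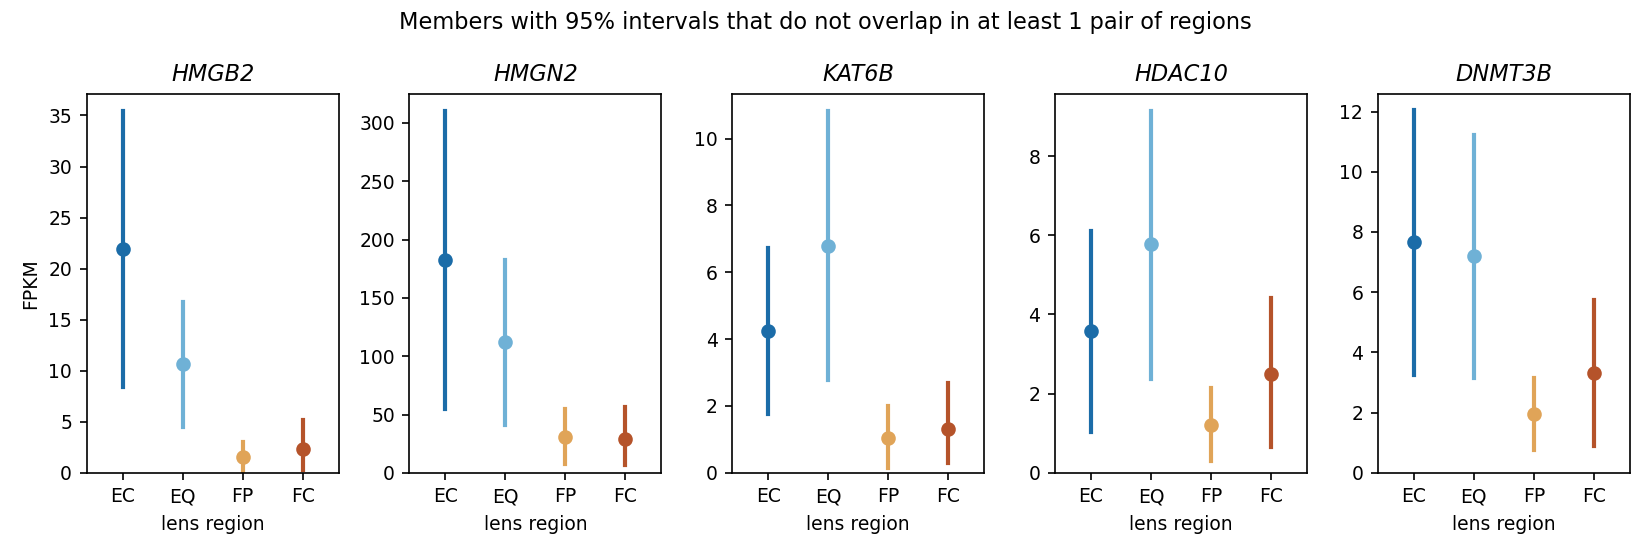
FPKM (points) with the 95% interval of the authors' table (bars) in EC, EQ, FP and FC for HMGB2, HMGN2, KAT6B, HDAC10 and DNMT3B, each panel on its own linear axis from 0. All 5 genes are lowest in a fiber region, with HMGB2 at 21.9 in EC and 1.55 in FP, and the bars of at least 1 fiber and 1 epithelial region do not meet.

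Of 7 HMG genes, 4 were at least 2-fold lower in fibers (24.6% of all loci), with a median log2 ratio of -1.31 (-0.20 over all loci). Without HMGA1 and HMGA2, whose listed values are unreliable, they were 3 of 5, namely HMGB2, HMGN2 and HMGN1. Besides HMGB2 and HMGN2, HMGN1, a second nucleosome-binding HMGN protein, was at 66.0, 42.3, 26.8 and 16.8 in EC, EQ, FP and FC (log2 ratio -1.31), and HMGN3, a name that the reference gives as an alias of HMGN2P46, was at 59.5, 63.2, 33.2 and 30.3 (-0.95). HMGB1, the widely expressed relative of HMGB2, was at 146 (EC), 150.3 (EQ), 69.6 (FP) and 78.6 (FC), and all of its intervals overlapped. The reference gives this name for both HMGB1 and HMGB3, so the name of this locus is uncertain. HMGA1, which binds AT-rich DNA, was the most abundant member of all by its listed FPKM (600.3, 300.5, 403 and 279 in the same order), and HMGA2, its relative in embryonic cells, was listed at 128, 168, 87.3 and 19.7. Both values are unreliable as listed, since the FPKM of each exceeded its own upper interval bound in every region, a bound that for HMGA1 was 61.5 and for HMGA2 35.5 in EC. The HMGA1 locus spans only 511 bases of an unplaced scaffold.

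In the heterochromatin group 4 of 6 members were at least 2-fold lower in fibers (24.6% of all loci), and the median log2 ratio was -1.65 (-0.20 over all loci). SUV39H2 places the methyl mark of silent heterochromatin on histone H3 and was at 4.80 (EC, 1.42 to 7.99), 4.32 (EQ, 0.819 to 7.84), 1.10 (FP, 0 to 4.57) and 0.675 (FC, 0 to 4.80), 5.14-fold lower in fibers by the sum. Its relative SUV39H1, with the same enzyme activity, was at 15.0 (EC), 9.18 (EQ), 9.83 (FP) and 13.8 (FC), a log2 ratio of -0.04 that turns above 0 with the regions scaled to the same median. The SUV39H1 locus spans only 2643 bases, and its name was not matched in the reference. CBX1 and CBX3 encode HP1 proteins, which bind the methyl mark that SUV39H2 places. CBX1 had an FPKM of 36.9 (EC, 8.28 to 74.9), 43.0 (EQ, 17.5 to 68.5), 11.4 (FP, 1.91 to 21.1) and 10.4 (FC, 3.39 to 23.2), and CBX3 was at 37.4, 39.6, 10.0 and 10.8 in the same order, with log2 ratios of -1.87 and -1.89. In both genes the drop lay between EQ and FP, and the 2 fiber values were alike. EHMT1, which methylates histone H3 in silent euchromatin, was at 18.6, 17.6, 6.61 and 6.89 (-1.42), and SUV420H1, a methyltransferase of histone H4, at 15.6, 16.3, 8.63 and 9.98 (-0.78). The intervals of each of these genes overlapped between all regions.

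Of 9 histone deacetylases, 4 were at least 2-fold lower in fibers (24.6% of all loci), and the median log2 ratio was -0.94 (-0.20 over all loci). HDAC2, a core deacetylase of several corepressor complexes, was the most abundant, at 78.7 (EC, 27.9 to 129), 92.4 (EQ, 33.2 to 151), 32.2 (FP, 11.4 to 52.7) and 33.5 (FC, 13.6 to 53.4). The lower bound in EQ, 33.2, lay below the upper bound in FP, so that even this 2.61-fold lower sum came with overlapping intervals. HDAC1, its close relative, was at 28.9, 22.8, 12.8 and 11.6 in the 4 regions (-1.08). HDAC7, a class II deacetylase, showed the lowest ratio of the family, with 11.9 (EC), 8.11 (EQ), 3.23 (FP) and 2.73 (FC) (3.36-fold lower). HDAC9, of the same class, was the only deacetylase at a higher level in fibers, with 2.21 (EC, 0.405 to 4.10), 2.42 (EQ, 0.911 to 3.89), 5.46 (FP, 2.06 to 8.91) and 5.29 (FC, 2.10 to 8.51), 2.33-fold higher by the sum. HDAC3 and HDAC8 were highest in EQ, at 28.1 and 48.2, and HDAC4 and HDAC11 had log2 ratios of -0.68 and -0.94.

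None of the 6 sirtuins, deacetylases that use NAD, reached 2-fold in either direction. Over all loci, 24.6% were at least 2-fold lower in fibers and 16.8% higher. SIRT6, a nuclear sirtuin of chromatin, had the lowest ratio, at 19.2 (EC), 23.9 (EQ), 11.7 (FP) and 13.8 (FC) (-0.76), and SIRT4, a mitochondrial sirtuin, the highest, at 3.25 (EC), 4.09 (EQ), 7.12 (FP) and 4.92 (FC) (0.71). SIRT1, the best known nuclear sirtuin, stayed between 3.67 and 4.44. The locus of SIRT5 is merged with that of NOL7, a nucleolar protein, and its FPKM, 97.1 (EC), 105 (EQ), 109 (FP) and 135 (FC), cannot be split between them. SIRT3, also mitochondrial, was at 14.2, 16.4, 12.8 and 10.8 and SIRT2, found mainly in the cytoplasm, at 19.7, 25.3, 25.3 and 33.2.

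The 7 acetyltransferases split, with KAT6B far lower in fibers and KAT5 and KAT2A near 2-fold higher. KAT5, the catalytic subunit of the NuA4 complex, was the most abundant, at 18.3 (EC, 7.47 to 28.9), 25.3 (EQ, 10.6 to 39.8), 39.1 (FP, 16.2 to 61.9) and 47.9 (FC, 19.3 to 75.9), on an unplaced scaffold. Each step along the path of differentiation had a higher value than the one before, the FC value was 2.62 times the EC value, and the intervals overlapped. KAT2A, the acetyltransferase of the SAGA complex, was at 11.6, 12.5, 19.8 and 25.8 in the same order (0.92), and its relative KAT2B was level, at 22.6, 23.3, 21.1 and 21.2. The coactivators EP300 and CREBBP were at 9.27, 10.9, 7.87 and 7.35 and at 11.2, 12.3, 6.71 and 6.54, with log2 ratios of -0.41 and -0.82. KAT6A, the close relative of KAT6B, was at 7.48, 8.94, 6.48 and 5.25 (-0.49).

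Bromodomain proteins read acetylated histones. BRD1, a scaffold of acetyltransferase complexes, had the lowest ratio of this group, at 5.85 (EC), 8.31 (EQ), 4.23 (FP) and 3.81 (FC) (-0.82). BRD2 was at 83.2 in FC and between 58.2 and 60.0 in the other regions, and BRD3, BRD7, BRD8 and BRD9 had log2 ratios between -0.62 and 0.30.

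The largest group, of 24 loci, holds SET domain methyltransferases, the MLL genes and MLL fusion partners. Of the 23 that reached an FPKM of 1, 17 stayed within 2-fold. In fibers 3 were lower (24.6% of all loci) and 3 higher (16.8%). The median log2 ratio was -0.19 (-0.20 over all loci). MLL, MLL3, MLL2 and SETD1B belong to the enzymes that methylate histone H3 at active genes, and none reached 2-fold between fibers and epithelium. MLL was at 2.89, 3.36, 3.23 and 4.00 in EC, EQ, FP and FC, and MLL3 at 4.01, 5.24, 5.87 and 5.86. MLL2 was at 2.97, 1.93, 2.12 and 2.78, at a locus that spans only 4747 bases of an unplaced scaffold. SETD1B, a name that the reference gives as an alias of SETD1A, was at 4.43, 4.23, 3.73 and 3.84. SETD2, which methylates histone H3 along transcribed genes, was at 9.22, 9.67, 4.85 and 5.81 (-0.83), and DOT1L, another enzyme of active genes, at 7.18, 7.74, 13.1 and 9.75 (0.61). SETD7, an enzyme for histone H3 and other proteins, had the highest mean, at 14.8 (EC), 34.5 (EQ), 30.6 (FP) and 32.9 (FC), and its difference lay between EC and the other regions. SETD8, which places a single methyl group on histone H4 and is tied to the cell cycle, was at 4.88 (EC, 1.53 to 8.14), 4.33 (EQ, 1.53 to 7.29), 11.2 (FP, 4.58 to 18.0) and 10.8 (FC, 3.90 to 17.6), 2.39-fold higher in fibers. WHSC1, also called NSD2, was at 5.42, 4.91, 2.87 and 2.51 (-0.94), whereas its relatives NSD1 and WHSC1L1 were at 7.86, 7.12, 4.77 and 5.30 and at 6.85, 7.63, 7.06 and 7.82.

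Some loci that the name rule takes are not histone enzymes. MLLT11, a fusion partner of MLL, had the largest ratio of the group, with 2.30 (EC, 0 to 13.8), 4.77 (EQ, 0 to 22.6), 12.5 (FP, 0 to 53.6) and 13.2 (FC, 0 to 57.3), but its intervals start at 0 in every region and its locus spans 216542 bases. MLLT4, the junction protein afadin, was at 6.56, 8.25, 19.5 and 19.1 (1.38). MLLT3, a subunit of elongation complexes, was highest in EQ, at 3.83, 7.96, 2.55 and 3.13 in the 4 regions. SETD6, known in mammals for methylating a transcription factor of inflammation, had the lowest ratio of the group at its locus on a scaffold, with 8.47, 4.55, 3.27 and 2.97 (-1.06). The other SETD6 locus was listed at 0 in EC, FP and FC. SETD9 was at 16.7, 14.7, 7.23 and 7.90 (-1.05), but its intervals also start at 0 in every region and its locus spans 140139 bases. SETD3, which methylates actin, was at 2.69, 3.97, 4.82 and 4.04 (0.41). MLL5, SETD4, SETD5, MLLT1, MLLT6 and MLLT10 had log2 ratios between -0.52 and 0.36.

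Of 11 lysine demethylases, 8 stayed within 2-fold, 2 were lower in fibers (24.6% of all loci) and 1 was higher (16.8%). KDM1A, which removes methyl groups from histone H3 as part of the CoREST complex, was the most abundant, at 28.5 (EC, 6.08 to 51.2), 52.7 (EQ, 16.3 to 89.1), 40.7 (FP, 4.96 to 78.0) and 42.1 (FC, 4.40 to 81.6). Its value was lowest in EC, and its log2 ratio of 0.03 turns below 0 with the regions scaled to the same upper quartile. KDM5A, which demethylates a mark of active promoters, differed the most, with 6.06 (EC, 1.60 to 10.5), 5.63 (EQ, 2.24 to 9.02), 16.9 (FP, 3.12 to 30.7) and 18.0 (FC, 1.52 to 38.8), 2.99-fold higher in fibers. Its relative KDM5B, at 36.2, 35.5, 27.4 and 29.0, had a log2 ratio of -0.34. KDM4A, a demethylase of silent chromatin, was at 10.7 (EC), 14.7 (EQ), 6.13 (FP) and 6.03 (FC) (2.09-fold lower), KDM4B at 11.7, 14.4, 6.80 and 7.65 (-0.86) and KDM4C at 1.48, 2.37, 2.96 and 3.59 (0.77), so that the last lay on the other side of 0. KDM2B, which recruits a Polycomb complex to CpG islands, was at 7.75, 8.61, 3.85 and 4.07 (-1.05). KDM1B, KDM2A, KDM3B and KDM8 had log2 ratios between -0.29 and -0.06.

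Of 12 Polycomb genes, 5 were at least 2-fold lower in fibers (24.6% of all loci) and 2 higher (16.8% of all loci). Polycomb repressive complex 2 writes a silencing methyl mark on histone H3. Its catalytic subunit EZH2 was at 5.15 (EC, 1.07 to 9.21), 6.41 (EQ, 0.115 to 13.0), 2.19 (FP, 0 to 6.64) and 2.61 (FC, 0 to 7.97), its subunit SUZ12 at 5.72, 4.73, 1.87 and 2.24 in the same order and its subunit EED at 8.55, 8.96, 3.68 and 4.56, and all were at least 2-fold lower in fibers (log2 ratios -1.27, -1.35 and -1.09). EZH1, the alternative catalytic subunit found in cells that no longer divide, was level, at 3.73 (EC), 3.88 (EQ), 4.01 (FP) and 3.67 (FC). EZH2 was listed above EZH1 in EC and EQ and below it in FP and FC, while the intervals of all these genes overlapped.

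Polycomb repressive complex 1 binds this mark through CBX proteins. CBX8 was lower in fibers, at 3.29 (EC, 0.576 to 6.38), 2.10 (EQ, 0.699 to 3.50), 0.730 (FP, 0 to 1.85) and 0.957 (FC, 0.206 to 2.63), and CBX7 was low throughout, at 1.05, 0.611, 0.213 and 0.443 in EC, EQ, FP and FC. CBX2, by contrast, was at 4.99 (EC, 1.60 to 8.21), 5.24 (EQ, 2.14 to 8.28), 10.4 (FP, 3.81 to 17.0) and 15.7 (FC, 4.74 to 26.6), 2.56-fold higher by the sum. CBX8 lies on chromosome 18 from 9899924 to 9904239 on Galgal4 and CBX2 from 9907402 to 9915762, so genes a short distance apart had ratios on opposite sides of 0. PHC2, a subunit that joins complexes into clusters, was the most abundant Polycomb gene, at 23.4 (EC, 6.55 to 29.5), 17.6 (EQ, 7.51 to 27.7), 32.2 (FP, 12.0 to 52.2) and 59.6 (FC, 14.6 to 102), 2.24-fold higher in fibers. BMI1, a partner of the ubiquitin ligase of this complex, was at 7.83, 11.4, 5.78 and 7.37 (-0.55), PHC1 was level at 7.84, 8.44, 8.74 and 8.17, and PHC3 was at 0.922, 1.03, 0.706 and 0.65.

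**Figure D3:**
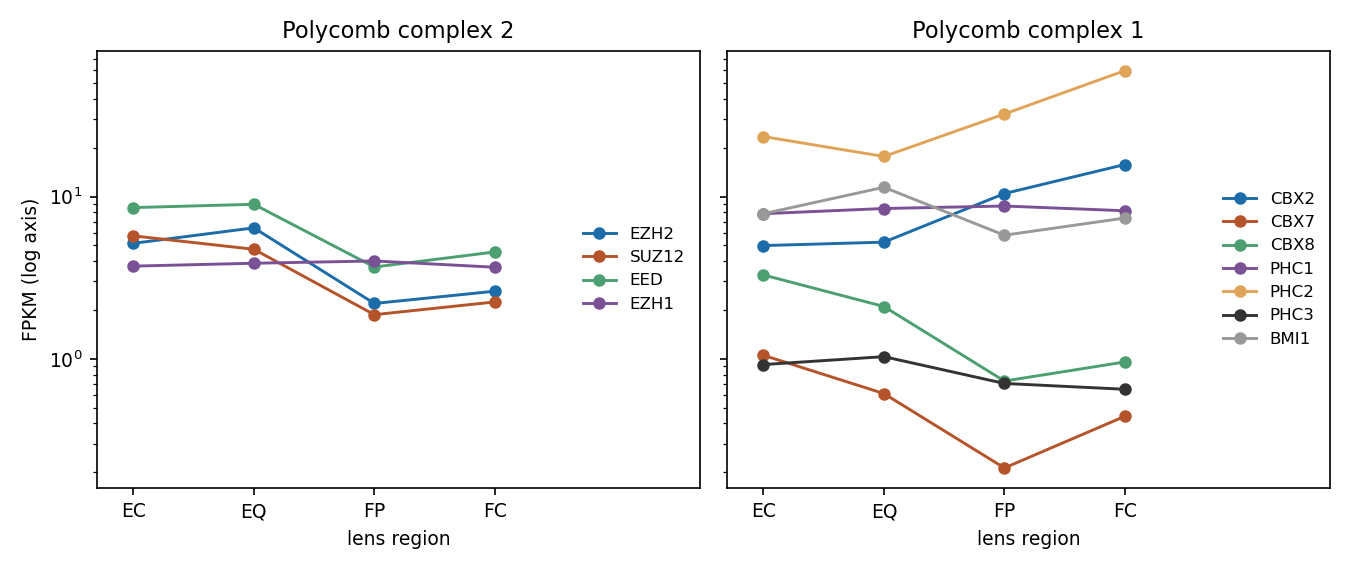
FPKM on a log axis in EC, EQ, FP and FC for the 4 members of Polycomb complex 2 (left) and 7 members of Polycomb complex 1 (right), 1 line per gene. EZH2, SUZ12 and EED step down between EQ and FP while EZH1 stays level, and CBX2 and PHC2 are higher in FP and FC where CBX7 and CBX8 are lower.

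PRDM proteins carry a domain related to SET and act mostly as transcription factors. PRDM12, known for its role in pain-sensing neurons, had the largest ratio, at 2.36 (EC, 0.449 to 4.04), 2.41 (EQ, 0.749 to 4.04), 5.39 (FP, 1.80 to 9.14) and 12.0 (FC, 3.89 to 20.1), 3.65-fold higher in fibers and 2.23-fold higher in FC than in FP. PRDM4 was the most abundant, at 12.5 (EC), 11.1 (EQ), 11.6 (FP) and 14.9 (FC). PRDM16, known for its role in brown fat, was at 1.25, 0.524, 0.524 and 0.530 in the 4 regions. PRDM2, PRDM10, PRDM11 and PRDM15 had log2 ratios between -0.72 and -0.20.

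Of 5 ARID proteins outside the SWI/SNF complex, ARID3A, a DNA-binding protein known from B cells, had the largest ratio of all members. Its FPKM was 4.40 (EC, 1.09 to 7.11), 3.48 (EQ, 1.00 to 5.84), 9.98 (FP, 3.56 to 16.3) and 24.9 (FC, 5.47 to 42.3), 4.43-fold higher in fibers by the sum. The FC value was 2.50 times the FP value, with overlapping intervals. ARID3B, its relative, peaked in EQ, at 4.12 (EC), 9.89 (EQ), 5.46 (FP) and 5.66 (FC). ARID4A and ARID4B, subunits of a deacetylase complex, were level, at 4.67, 5.35, 4.68 and 4.35 and at 3.46, 4.04, 3.96 and 3.15, and ARID5B was at 4.65, 7.38, 6.15 and 8.53.

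Of 12 loci of SWI/SNF, a remodeler that ejects nucleosomes, and of other SMARC proteins, 8 stayed within 2-fold. In fibers 3 were lower (24.6% of all loci) and 1 was higher (16.8%). SMARCB1, a core subunit, had the highest mean, at 48.5 (EC, 19.5 to 77.4), 62.4 (EQ, 24.4 to 100.0), 57.0 (FP, 22.4 to 91.6) and 62.2 (FC, 24.2 to 99.9). The core subunit SMARCC1 was at 36.7, 52.8, 45.4 and 57.9 in the same order, SMARCE1 at 31.1, 48.7, 47.6 and 43.6 and the ATPase SMARCA2 at 13.8, 22.3, 17.5 and 17.1, each lowest in EC. ARID1A, the DNA-binding subunit, was at 12.3, 17.2, 11.9 and 10.4 (-0.40). Its relative ARID1B was at 0.495 (EC, 0 to 0.853), 0.410 (EQ, 0 to 0.853), 1.13 (FP, 0.142 to 1.99) and 1.62 (FC, 0.284 to 2.84), 3.05-fold higher in fibers, but the locus that carries this name spans only 1114 bases. The 3 loci at least 2-fold lower in fibers were SMARCAD1, described with the ISWI genes, and a pair of accessory SMARCD subunits: SMARCD1 was at 26.2 (EC, 8.08 to 44.2), 36.7 (EQ, 13.4 to 59.9), 12.5 (FP, 4.72 to 20.2) and 13.2 (FC, 4.12 to 22.5) (2.45-fold lower), and SMARCD3, known from the heart, was at 5.27, 8.05, 2.73 and 3.62 (-1.07). SMARCD2 shares a merged locus with FTSJ3, at 11.8, 12.5, 8.83 and 9.05, and ARID2 and SMARCAL1, the latter a repair protein of stalled replication forks, had log2 ratios of -0.75 and 0.06.

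ISWI remodelers space nucleosomes evenly, and 2 of the 5 loci of this group were at least 2-fold lower in fibers (24.6% of all loci). The ATPase SMARCA5 was at 19.9 (EC, 7.67 to 32.1), 26.4 (EQ, 9.02 to 43.8), 9.78 (FP, 2.66 to 17.0) and 10.9 (FC, 1.89 to 23.2) (2.24-fold lower), and its relative SMARCA1 at 5.79, 6.68, 3.33 and 3.17 (-0.94). BAZ1A, a partner of SMARCA5 at replicating DNA, was at 5.44 (EC, 2.35 to 8.53), 5.30 (EQ, 1.92 to 8.65), 1.65 (FP, 0.335 to 3.36) and 1.93 (FC, 0.438 to 3.62) (3.00-fold lower). BAZ2A, a partner of the same ATPase at ribosomal DNA, had the only ratio above 0, at 7.52, 6.23, 8.75 and 14.6 (0.77). The locus that carries the name BAZ2A spans only 4553 bases of an unplaced scaffold. Its relative BAZ2B had a log2 ratio of -0.83. SMARCAD1, a remodeler outside these complexes, was at 6.04, 7.74, 3.63 and 3.00 (-1.06).

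Among CHD and INO80 genes, CHD4, the ATPase of the NuRD deacetylase complex, was the most abundant, at 63.8 (EC, 17.3 to 110.2), 87.5 (EQ, 23.6 to 151), 57.5 (FP, 15.3 to 99.9) and 62.6 (FC, 11.6 to 114). Of the 9 loci of this group, 7 stayed within 2-fold. In fibers 1 was higher (16.8% of all loci) and 1 was lower (24.6%). The higher one was CHD2, a remodeler of active genes, at 4.50 (EC, 1.61 to 7.40), 4.47 (EQ, 1.76 to 7.21), 9.13 (FP, 2.78 to 15.5) and 11.1 (FC, 0.976 to 23.1). The lower one was INO80D, a subunit of the INO80 complex, at 1.87 (EC), 2.45 (EQ), 0.906 (FP) and 1.07 (FC) (2.19-fold). CHD7, a remodeler of enhancers, was lowest in EC, at 7.92, 15.3, 10.7 and 10.9 in the 4 regions. CHD5, CHD6 and CHD9 had log2 ratios between -0.37 and 0.06, INO80C had one of 0.49, and the INO80 locus, merged with a microRNA, was at 2.50, 3.43, 3.42 and 2.99.

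Among enzymes and readers of DNA methylation, DNMT3A, the other enzyme that places new methyl groups, was the most abundant, at 35.1 (EC, 2.73 to 76.7), 32.9 (EQ, 5.66 to 60.2), 37.7 (FP, 6.89 to 68.9) and 46.1 (FC, 13.4 to 78.8). Its log2 ratio was 0.30, whereas DNMT3B was 2.82-fold lower in fibers by the sum. TET enzymes start the removal of methyl groups. TET2 was at 2.52, 4.04, 5.75 and 5.88 in EC, EQ, FP and FC (0.83), TET1 at 4.58, 4.16, 2.75 and 2.83 (-0.65) and TET3 at 8.98, 6.63, 5.78 and 7.84 (-0.20). MBD4, a glycosylase that repairs mismatches at methylated sites, had the largest ratio, at 14.7 (EC, 4.81 to 23.0), 12.1 (EQ, 4.93 to 19.1), 20.9 (FP, 8.54 to 33.3) and 31.5 (FC, 10.2 to 52.7) (0.97), and MBD3, a NuRD subunit, was at 25.9, 29.0, 43.0 and 45.6 (0.69). MBD5 had a log2 ratio of 0.15.

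NAP1L1, a chaperone that carries histones H2A and H2B, was among the most abundant members, at 120.2 (EC, 33.6 to 206), 218 (EQ, 13.0 to 445), 177 (FP, 6.84 to 466) and 181 (FC, 18.3 to 468). Its value was lowest in EC, and its fiber and epithelial sums differed little (0.08). NAP1L4, a relative, was at 21.9 (EC), 31.8 (EQ), 26.6 (FP) and 25.8 (FC) (-0.04, above 0 at the same median). The linker histone gene H1F0, known for rising in cells that stop dividing, had 1 locus listed at 0 in every region and 1 listed at 0.986, 0.0783, 0.846 and 0, so it was not measurable here.

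Of the 3 steps along the path of differentiation, the one from EQ to FP had the most members at 2-fold or more. Between EC and EQ, 6 of 137 members were at least 2-fold higher in EQ (8.89% of all loci) and 3 lower (9.36% of all loci). Among the higher ones were ARID3B, SETD7, KDM1B, MLLT3 and MLLT11, and among the lower ones PRDM16 and HMGB2, with log2 ratios of -1.25 and -1.04. With the regions scaled to the same median, the counts were 2 higher and 6 lower, and the median log2 ratio over all loci went from 0.23 to -0.01. Between EQ and FP, 31 of 136 members were at least 2-fold lower in FP (22.8%; 25.7% of all loci) and 10 higher (7.35%; 15.5% of all loci), or 23 and 15 at the same median. The median log2 ratio of this step was -0.37 over the members and -0.30 over all loci, and at the same median -0.11 and -0.04. HMGB2, KAT6B and HDAC10 were lower in FP with intervals apart, which is 3 of 134 members (2.24%; 2.54% of all loci), and no member was higher in this way (2.41% of all loci).

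**Figure D4:**
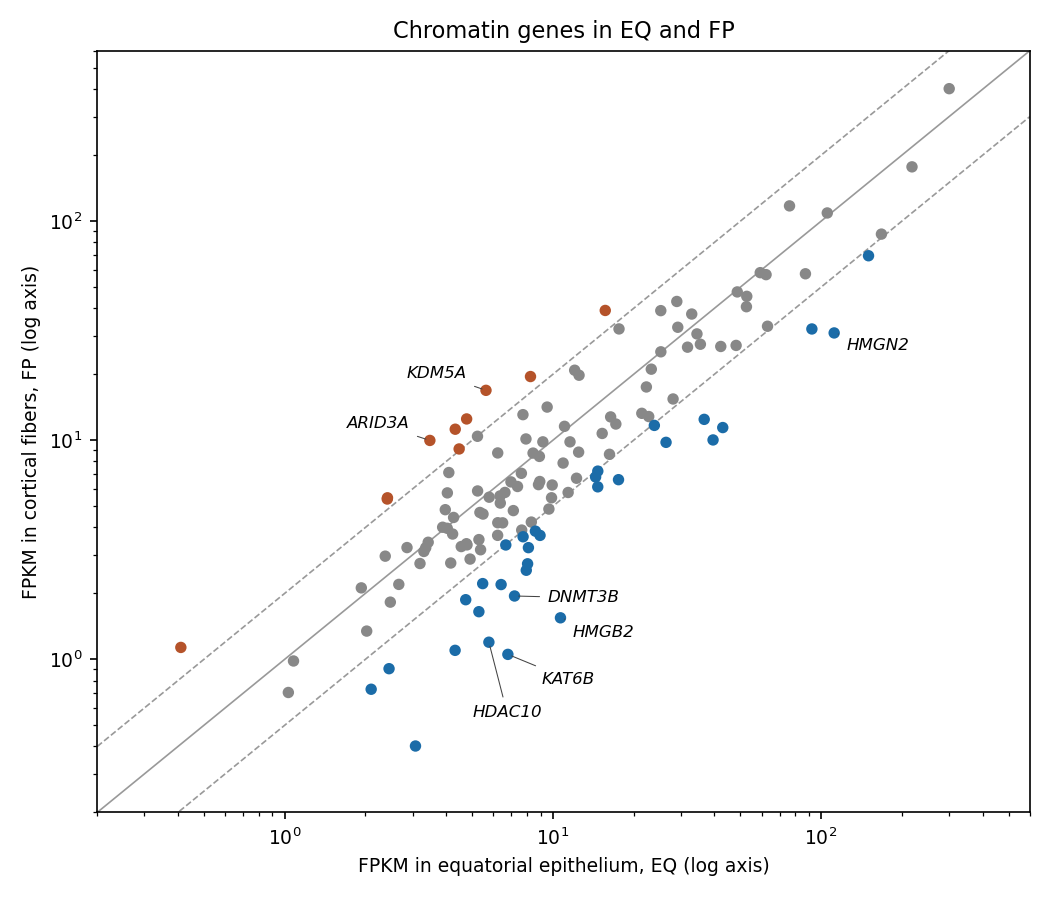
FPKM of the 136 chromatin genes with a ratio between EQ (horizontal log axis) and FP (vertical log axis), 1 point per gene. The solid line marks equal values and dashed lines 2-fold; 31 genes in blue lie below the lower dashed line, among them HMGB2, KAT6B and HDAC10, and 10 genes in orange lie above the upper one, among them KDM5A and ARID3A.

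Between FP and FC, 4 of 132 members were at least 2-fold higher in FC (3.04% of all loci), among them ARID3A, PRDM12 and HDAC10. These 3 had log2 ratios from 1.07 to 1.32, and with the regions scaled to the same median the count was 2. Only 1 member was lower (2.83% of all loci), HMGA2, whose listed values are unreliable. Between the ends of the path, EC and FC, 18 of 136 members were at least 2-fold higher in FC (13.2%, against 21.9% of all loci). At least 2-fold lower were 23 (16.9%, against 22.8% of all loci). With the regions scaled to the same median, 18 were higher and 27 lower. At the same upper quartile, 14 were higher and 33 lower. This last scaling took the median log2 ratio over all loci from -0.02 to -0.24. HMGB2 was lower by 9.47-fold, SUV39H2 by 7.12-fold, HMGA2 by 6.49-fold from its unreliable values and HMGN2 by 6.21-fold. MLLT11, ARID3A and PRDM12 were higher by 5.76-fold, 5.66-fold and 5.10-fold. Intervals apart were found for 1 of 134 members between EC and FC, HMGB2 (3.20% of all loci lower and 2.79% higher). No member had intervals apart between EC and EQ (0.779% of all loci higher and 0.714% lower) or between FP and FC (0.0389% and 0%).

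Other genes of the same machinery, from a list of symbols outside the name rule, were counted in the same way. Of 97 such loci with a ratio, 28 were at least 2-fold lower in fibers (28.9%; 24.6% of all loci) and 6 higher (6.19%; 16.8% of all loci), with a median log2 ratio of -0.50 against -0.20 over all loci. RBBP7, a histone-binding subunit shared by Polycomb, NuRD and acetyltransferase complexes, was at 9.14, 7.37, 1.86 and 1.84 in EC, EQ, FP and FC, and was the 1 locus of this list with intervals apart. CTCF, which bounds chromatin loops, was at 11.7, 12.2, 3.66 and 4.77. CHAF1A and CHAF1B, subunits of the chaperone that loads histones on replicating DNA, were at 6.40, 4.07, 2.22 and 2.55 and at 6.09, 4.78, 1.39 and 1.81. DPY30, a subunit shared by the MLL complexes, was the other way round, at 25.5, 26.4, 88.6 and 79.5, as was GATAD2B of the NuRD complex, at 8.33, 9.38, 19.3 and 31.7.

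Genes of the cell cycle were lower in fibers beside these chromatin genes. All 14 proliferation genes found were at least 2-fold lower in fibers (24.6% of all loci), and their summed FPKM was 327 (EC), 190 (EQ), 68.9 (FP) and 81.7 (FC). PCNA was the largest part of this sum, at 104.8, 76.4, 34.1 and 46.9 in EC, EQ, FP and FC. MKI67, a marker of dividing cells, was at 7.93, 3.23, 0.709 and 0.766 and RRM2, which makes nucleotides for replication, at 29.0, 13.4, 2.45 and 1.97 in the same order. Of the 5 members with intervals apart, HMGB2, HMGN2 and DNMT3B were lower in EQ than in EC and lower again in FP. This is the order of regions of the summed proliferation genes up to FP, though for DNMT3B the EC and EQ values were close. KAT6B and HDAC10 were higher in EQ than in EC, and thus did not follow that order. The part of proliferation in the lower values of the chromatin genes was not tested.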

How the data were processed

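RNA of 4 lens regions was sequenced as 8 libraries, 2 per region, with reads of 35 bases. The authors trimmed adaptors off, ran TopHat against Galgal4 with Ensembl models, and computed FPKM with Cufflinks and Cuffdiff (version 2.1.1 for Cuffdiff, per the submitters' processing notes), leaving out the δ-crystallin transcript. The deposited FPKM is 1 value per region, pooled over both libraries, with 95% interval bounds deposited on the same scale. How strongly 1 library weighs in a pooled value cannot be seen, and all values depend on the scaling between libraries by Cuffdiff. A second table of the authors' own comparisons between regions (log2 fold changes, test statistics, p-values and q-values) was not used, and 0 columns of per-sample values were left unmapped.

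Ratios of pooled FPKM were computed with Python 3.11.15, numpy 2.4.6 and pandas 2.3.3, and figures with matplotlib 3.10.9. A locus was counted at 2-fold or more where at least 1 compared region had an FPKM of 1 or more and no compared value was 0, and with intervals apart where the 95% intervals did not overlap, values at 0 or outside their own interval being left out. The same counts were made over all loci. No test was run, since no value per library was used. The paper gives an approximate number of reads per lens region, which was not used here. The code was tested on simulated data with intervals much narrower than the real ones. That check does not show how many real differences the interval rule can find.

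The members and gene lists were chosen with earlier results of these data known. The rule for named genes took members with intervals apart in at least 1 of 6 pairs of regions and, in each of 16 role groups, the highest mean FPKM and the largest and smallest ratios (46 members). Other members were named to complete families or counts, after their values were seen. Names matched a RefSeq gene table of assembly GRCg7b for 135 of 143 members. Its coordinates were not used, no sequences were used here, and promoter motifs were not searched. Alternatives were the minimum FPKM, an added FPKM of 1, another scaling of regions, a fold of 3 and leaving out merged loci. A few members entered the counts but are not reported here by name.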

Additional observations from a re-analysis of the deposited data

How the results depend on the processing

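No paired analysis was possible because each region has 1 pooled value, and for the same reason no library could be left out. Between EC and EQ the balance turned over with the scaling, from 6 higher and 3 lower to more lower than higher. Leaving out merged loci, or setting no minimum FPKM, kept all 18 counts within 1.5 times. With a minimum of FPKM 5, the count at 2-fold or more higher in EQ than in EC was 3. With an FPKM of 1 added to every value, which shrinks the ratios of low genes, the members lower in fibers numbered 19, those higher and lower in EQ than in EC 3 and 1, those higher in FP than in EQ 6 and those higher in FC than in FP 2. Scaled to the same median, EQ against EC gave 2 higher and 6 lower, FC against FP gave 2 higher, and 2 members had an FC interval below that of EC. Scaled to the same upper quartile, these were 3 and 6, 2, and 2. The cause of these shifts was not tested beyond the change in the medians. At a fold of 3, which fewer genes can reach, 5 members were higher and 10 lower in fibers, 1 higher and 0 lower in EQ than in EC, 1 higher and 11 lower in FP than in EQ, 0 higher in FC than in FP, and 6 higher and 10 lower in FC than in EC. Of 46 named genes, 2 changed the sign of their ratio at the same median (NAP1L4 and SUV39H1) and 1 at the same upper quartile (KDM1A). With an FPKM of 1 added, 6 named genes fell below 2-fold: HDAC10, HDAC9, INO80D, KDM4A, ARID1B and the SETD6 locus on a scaffold. At the same median 3 crossed the threshold, KAT5 and MBD4 to 2-fold or more and KDM4A to less. All 46 kept their side of the threshold at the same upper quartile. The promoter motif search was not run. With wide intervals and no values per library, most 2-fold differences here have no error check, and values under an FPKM of 1 are the least certain.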
